A study of Mus musculus with 2 samples.

Results

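The genes of the mitochondrial ribosome were placed on a map of chromosome domain boundaries from olfactory sensory neurons. They were the protein-coding genes on autosomes whose symbol is Mrpl or Mrps followed by a number in the GENCODE M21 annotation of GRCm38. This gave 78 of 20807 protein-coding autosomal genes, 49 with an Mrpl symbol (large subunit) and 29 with an Mrps symbol (small subunit), on 17 of the 19 autosomes. The symbol rule uses no value of the map, but the group was chosen with earlier results of these data known.

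The map came from in situ Hi-C, a method that joins DNA ends lying near each other in the nucleus. The neurons came from olfactory epithelium, the donors being adult mice of the 129P2/OlaHsd strain and of mixed sex. Cells positive for the olfactory receptor gene Olfr17 (P2) were sorted by fluorescence from P2-GFP mice. The 2 biological replicates held 23000 and 20000 cells, were fixed in 1% formaldehyde, cut with DpnII, received no treatment and form 1 group. The authors called boundaries once, after combining both replicates, so no value has a spread between replicates, no other cell type was compared, and the number of contacts behind the map, its depth, is unknown. Hi-C gives no RNA level, so neither the identity of the sorted cells nor the activity of the genes was measured here.

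Mitochondria carry their own ribosome, which translates the few proteins encoded by mitochondrial DNA, all of them parts of the respiratory chain and ATP synthase. Its RNAs are made in the mitochondrion, but every one of its proteins is encoded by nuclear genes, translated in the cytosol and imported. Many of these proteins descend from those of bacterial ribosomes, and others exist in mitochondria only. Their genes are used in nearly all cells, and neurons of the olfactory epithelium depend on mitochondria as other neurons do. At a domain boundary, Hi-C contacts between the flanking sequences are depleted. Boundaries are known to lie often at promoters of widely used genes and at sites of CTCF, a zinc finger protein that stops loop extrusion by cohesin.

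Each of the 7169 autosomal boundaries is a bin of 5 kb with a score, given by the authors without a unit, and a class. Strong boundaries had scores of at least 0.5002 and Weak ones of at most 0.4996. The distance of a gene is that from its transcription start site (TSS), the 5′ end of the annotated gene, to the midpoint of the nearest boundary, and a boundary is called upstream or downstream along the direction of transcription. For a TSS inside the boundary bin, within 2.5 kb of its midpoint, the side is below the resolution of the map. The 95% intervals given are exact binomial (Clopper-Pearson) intervals. They treat genes as independent and cover counting error only.

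Genes of the mitochondrial ribosome were near a boundary in a larger share than protein-coding genes at large. Of the 78 TSSs, 33 (42.3%, interval 31.2 to 54.0) were within 25 kb of a boundary, against 24.3% of all protein-coding autosomal genes. Since boundaries are commoner where genes are dense, the other genes were also weighted to the same density, counted as protein-coding TSSs up to 500 kb away, in 10 classes. The weighted share was 24.3% too, which leaves a difference of 18 percentage points. The members had a median of 18.5 other protein-coding TSSs within 500 kb, against 16 for all genes. The median distance was 34.1 kb for the members (quartiles 11.1 and 89.1 kb), 58.1 kb for other genes at equal density (quartiles 25.9 and 104.7 kb) and 58.4 kb for all genes.

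The share was also above that of all genes within 5, 10, 50 and 100 kb, but not within 1 kb, where it was 1.28% of members against 1.65% of other genes at equal density. Within 5 kb lay 11 members (14.1%), against 7.43% of all genes. Within 10 kb lay 17 members (21.8%), against 11.7% of all genes. Within 50 kb lay 44 members (56.4%), against 43.7% of all genes, and within 100 kb lay 65 (83.3%), against 73.1%. The weighted shares were 7.40%, 11.7%, 43.9% and 73.3% at 5, 10, 50 and 100 kb. At 5 kb the members' count is small, and 5 TSSs lay in the boundary bin itself (6.41%, against 4.07% of all genes).

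**Figure D1:**
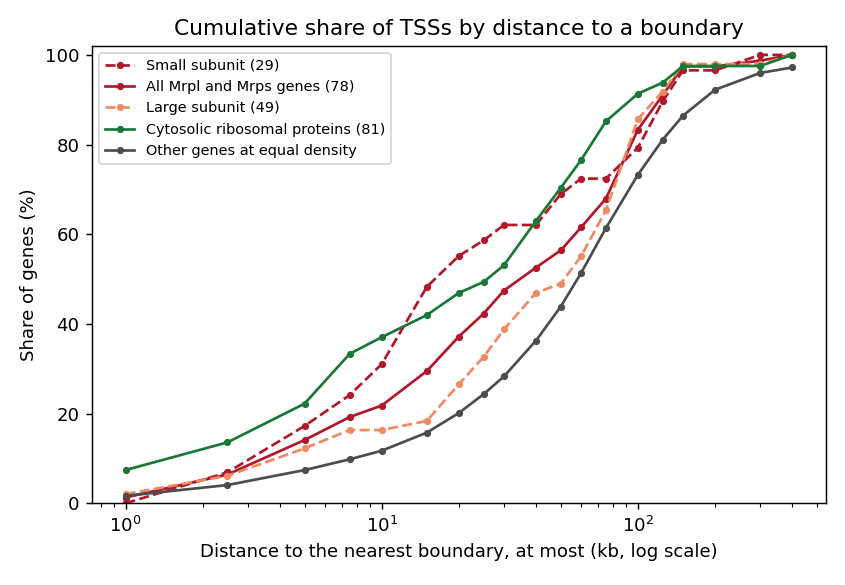
Share of TSSs (%) at or below each distance to the nearest boundary midpoint (kb, log axis) for the small subunit genes, all 78 members, the large subunit genes, the cytosolic ribosomal protein genes and other protein-coding genes weighted to the members' gene density. The curve of all members runs above that of other genes from 2.5 kb on, with 42.3% against 24.3% at 25 kb, and the small subunit curve reaches 58.6% there.

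Small subunit genes made up more of the near genes than their number. Of the 29 Mrps genes, 17 were within 25 kb of a boundary (58.6%, interval 38.9 to 76.5), against 24.6% of other genes at equal density. Of the 49 Mrpl genes, 16 were (32.7%, interval 19.9 to 47.5), against 24.2%. The median distance was 16.1 kb for the Mrps genes and 50.4 kb for the Mrpl genes. The intervals of both subunits overlap, that of the large subunit holds the share of other genes, and the difference between the subunits was not tested. The symbols do not follow the particle throughout. In structures of the mammalian ribosome the proteins of Mrps18a and Mrps30 lie in the large subunit, and the protein of Mrps36 is now known as a part of the 2-oxoglutarate dehydrogenase complex. With Mrps18a and Mrps30 moved to the large subunit and Mrps36 left out, the shares were 15 of 26 (57.7%) and 18 of 51 (35.3%) for the small and large subunit.

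**Figure D2:**
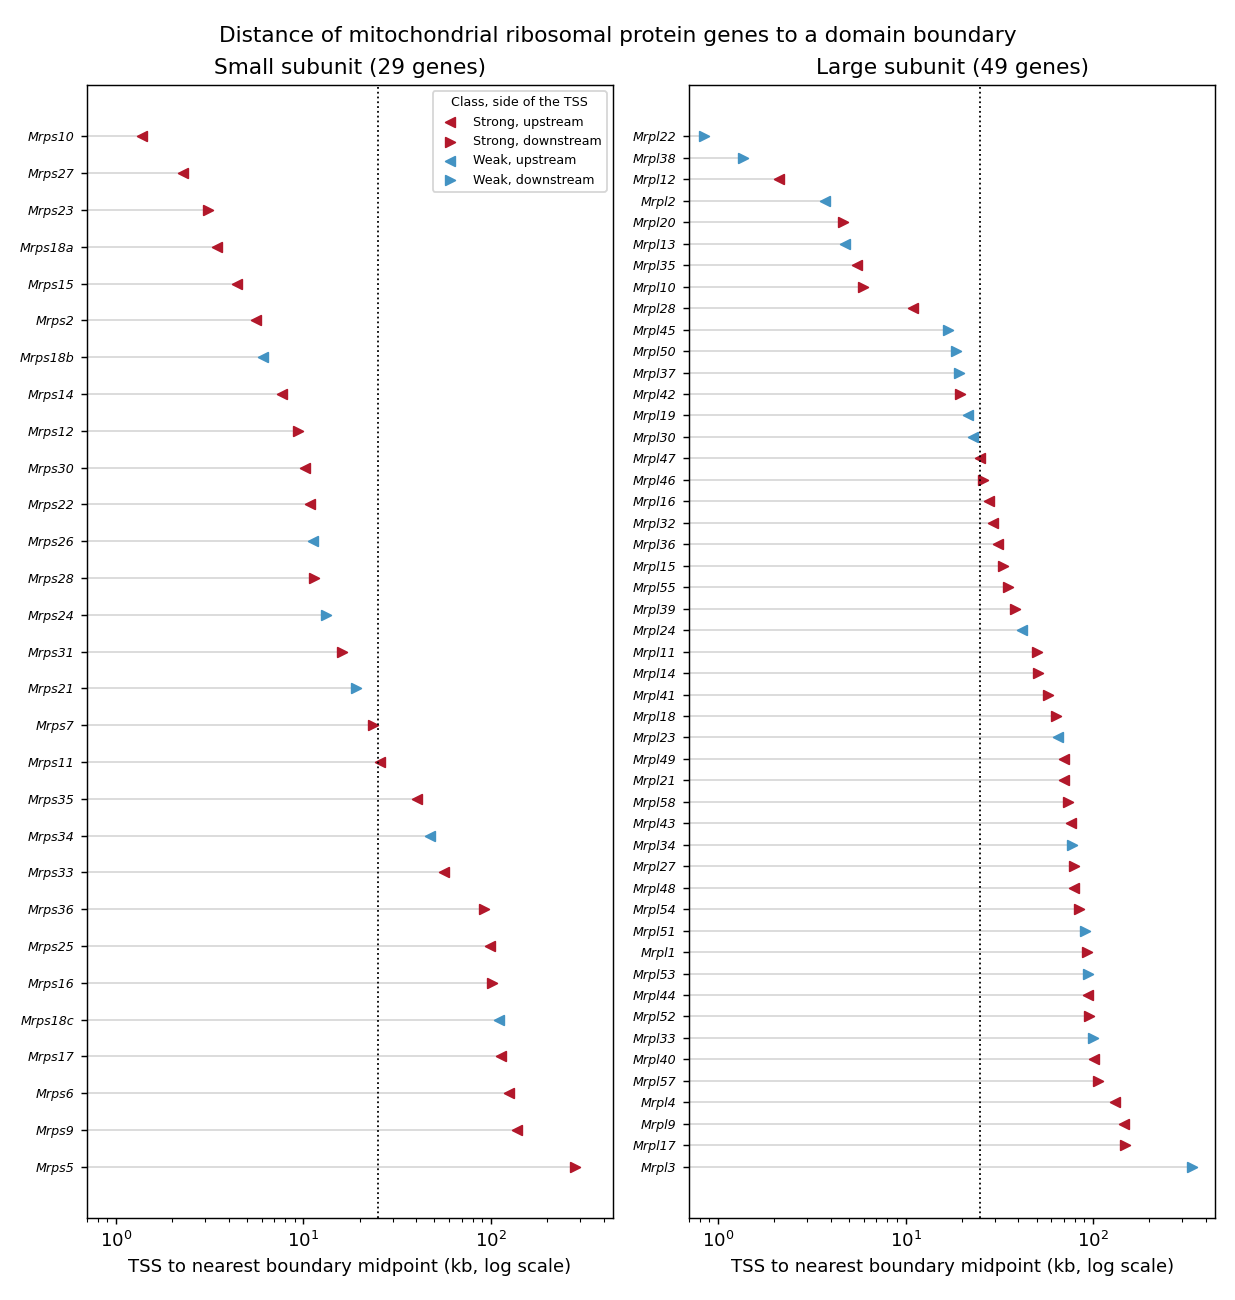
Distance from TSS to nearest boundary midpoint (kb, log axis) for each Mrps gene on the left and each Mrpl gene on the right, in order of distance. Red marks a Strong and blue a Weak boundary, triangles point left for a boundary upstream and right for one downstream, and the dotted line is at 25 kb. Distances run from 0.839 kb (Mrpl22) to 339 kb (Mrpl3). Within 10 kb, 8 of the 9 Mrps genes and 4 of the 8 Mrpl genes have a Strong boundary, against 67.4% of all genes within 10 kb. This difference between the subunits was not tested, and it depends on gene starts and symbols. Mrps24, shown at 13.2 kb from a Weak boundary, lies 5.20 kb from it by its RefSeq start. Mrps18a, among the 8 with a Strong boundary, encodes a large subunit protein.

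Mrps10, Mrps15, Mrps2, Mrps14 and Mrps12 encode homologues of bacterial ribosomal proteins. Mrps10 (chr17:47368887-47381417, plus strand) had its TSS 1.39 kb from a Strong boundary of score 0.946, inside the boundary bin. Mrps15 (chr4:126046925-126055532, plus strand) lay 4.42 kb downstream of a Strong boundary of score 1.26. Mrps2 (chr2:28468066-28471178, plus strand) lay 5.57 kb downstream of one of score 0.823. In these genes the boundary was on the promoter side, although the side at Mrps10 is below the resolution of the map. Mrps14 (chr1:160195215-160202170, plus strand) stood 7.71 kb from an upstream boundary of score 2.47, above 98.8% of autosomal boundaries. It was the single protein-coding TSS within 25 kb of that boundary, and 3 others lay within 500 kb. Mrps12 encodes the homologue of the bacterial protein at the decoding centre. It lies on the minus strand (chr7:28739641-28741820), with a boundary of score 1.69 at 9.32 kb downstream, past the end of the gene. Its head-to-head neighbour Sars2, the mitochondrial seryl-tRNA synthetase, starts 172 b away on the other strand.

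The Mrps18 family has 3 paralogues in mammals, and they differed in distance. Mrps18a (chr17:46110986-46128910, plus strand) lay 3.49 kb from an upstream Strong boundary of score 0.693. Mrps18b (chr17:35910379-35916389, minus strand) lay 6.11 kb from an upstream Weak boundary of score 0.369, beside Ppp1r10, a regulatory subunit of protein phosphatase 1 whose TSS is 45 b away. Mrps18c on chromosome 5 was 111 kb from the nearest boundary, also Weak (score 0.404). The far paralogue and one of the near ones thus had a boundary of the same class.

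Of the mitochondria-specific small subunit proteins, Mrps27, a pentatricopeptide repeat protein, and Mrps23 were nearest. Mrps27 (chr13:99344786-99415562, plus strand) lay 2.29 kb from a Strong boundary of score 1.90, inside the boundary bin, so the side is not resolved. Its head-to-head neighbour Ptcd2, another gene for a mitochondrial pentatricopeptide repeat protein, starts 81 b away. Mrps23 (chr11:88204388-88211507, plus strand) held a Strong boundary of score 1.29 in its own body, 3.11 kb from the TSS. The boundary at Mrps27 scored above 95.2% of autosomal boundaries and that at Mrps23 above 85.1%.

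Large subunit genes included the member closest to a boundary. Mrpl22 (chr11:58171661-58179565, plus strand), whose protein lines the exit tunnel in bacterial ribosomes, had its TSS 0.839 kb from a Weak boundary of score 0.308. Mrpl38 (chr11:116131817-116138868, minus strand) lay 1.37 kb from a Weak boundary of score 0.255. Mrpl12 (chr11:120484613-120489065, plus strand), the homologue of the bacterial stalk protein, lay 2.11 kb from a Strong boundary of score 0.616. All 3 TSSs were in the boundary bin, and none of these boundaries scored above the median nearest boundary of the members, 0.768.

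Further large subunit genes within 10 kb had boundaries of both classes. Mrpl2 (chr17:46646229-46650139, plus strand), whose bacterial homologue is next to the peptidyl transferase centre, lay 3.73 kb from an upstream Weak boundary of score 0.380, with Klc4, a kinesin light chain gene, 207 b from it in head-to-head order. Mrpl13 (chr15:55534094-55557748, minus strand) lay 4.75 kb from an upstream Weak boundary of score 0.488. The boundary nearest to Mrpl20 (chr4:155802878-155809975, plus strand) was in the gene's body, 4.62 kb from the TSS, Strong, with a score of 0.647. The same order held at Mrpl10 (chr11:97041560-97049213, plus strand), the base of the stalk in the bacterial ribosome, whose body holds a Strong boundary (score 1.06) at 5.94 kb. Mrpl35 (chr6:71812997-71826969, minus strand) lay 5.53 kb from an upstream Strong boundary of score 0.946. The TSS nearest to that boundary, at 1.17 kb, is that of Immt, which encodes a protein of the cristae junctions of mitochondria and was chosen for mention after its value was seen. For Mrpl35 the RefSeq start is 3185 b inside the gene, which puts it 8.72 kb from the boundary.

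The other 16 members within 25 kb lay between 10.2 kb (Mrps30) and 24.9 kb (Mrpl47). Mrpl47 was the last inside the 25 kb limit, and the first outside were Mrps11 at 25.6 kb and Mrpl46 at 26.03 kb. With the coding transcript starting nearest to the boundary, or with the RefSeq start, Mrpl47 fell outside, at 25.4 and 25.7 kb. With the same starts Mrps24, at 13.2 kb from a Weak boundary of score 0.336, lay 5.19 and 5.20 kb from it. Mrps11 and Mrpl46 are head-to-head neighbours 412 b apart, and theirs was the only boundary nearest to more than 1 member (score 0.759, Strong), so the 78 members had 77 distinct nearest boundaries.

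The farthest member, Mrpl3, another homologue of a protein near the peptidyl transferase centre, was 339 kb from a Weak boundary of score 0.467, in an interval of 970 kb between boundaries. Mrps5 was 280 kb from a Strong boundary of score 1.26, in an interval of 565 kb. After these came Mrpl17 at 149 kb, Mrpl9 at 146 kb, Mrps9 at 139 kb, Mrpl4 at 130 kb and Mrps6 at 126 kb. In all 13 members were beyond 100 kb, and Mrpl3 and Mrps5 alone beyond 150 kb. Within 150 kb lay 97.4% of members, against 86.5% of other genes at equal density.

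Over all 78 members together, the median score of the nearest boundaries and the share of Strong ones were close to those of other genes. The median score was 0.768 for the members, 0.687 for other genes at equal density and 0.695 for all genes, and 56 of 78 nearest boundaries were Strong (71.8%, interval 60.5 to 81.4), against 65.3% of all genes. Among the 33 near members 20 were Strong (60.6%), against 67.0% of all genes within 25 kb. Among the 45 farther members 36 were (80.0%), against 64.8% of all genes at that distance. Strong boundaries were thus more frequent among the farther members than among the near ones, a difference that was not tested. It was larger in the Mrpl genes (7 of 16 near, 26 of 33 farther) than in the Mrps genes (13 of 17 near, 10 of 12 farther). Among near members the median score was 0.466 for Mrpl and 0.946 for Mrps genes, against 0.708 for all genes within 25 kb. The highest scores were those of Mrpl32 (3.06, at 29.3 kb), Mrpl21 (2.48, at 70.4 kb) and Mrps14 (2.47). The lowest were those of Mrps26 (0.215, at 11.2 kb), Mrpl37 (0.219, at 19.4 kb) and Mrpl23 (0.227, at 65.2 kb). For 16 members (20.5%) the nearest boundary was in the top 10% of autosomal scores, against 12.2% of all genes.

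Boundaries lay on both sides of these genes. The nearest one was upstream in 40 of 78 members (51.3%), against 51.9% of all genes. Within 25 kb it was upstream in 18 of 33 (54.5%), against 55.4% of all genes within that distance. Within 10 kb it was upstream in 11 of 17 (64.7%), against 54.8%, and 5 of those 17 TSSs lie in the boundary bin. Over all boundaries around the TSSs, not the nearest alone, the 25 kb upstream held 0.231 per gene for the members and 0.134 for other genes at equal density. The 25 kb downstream held 0.192 for the members and 0.109 for other genes. From 25 to 50 kb the members had fewer on both sides, 0.0897 upstream and 0.0513 downstream, against 0.107 and 0.0910 for other genes. Among the bins out to 50 kb, the members thus exceeded other genes only in the 25 kb next to the TSS. Farther out the bins went both ways. From 125 to 150 kb upstream the members had 0.167, against 0.0948, and from 75 to 100 kb downstream 0.141, against 0.0993. From 150 to 175 kb upstream they had 0.0513, against 0.0949. The excess is therefore not particular to the bins next to the TSS, and the difference between bins was not tested.

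**Figure D3:**
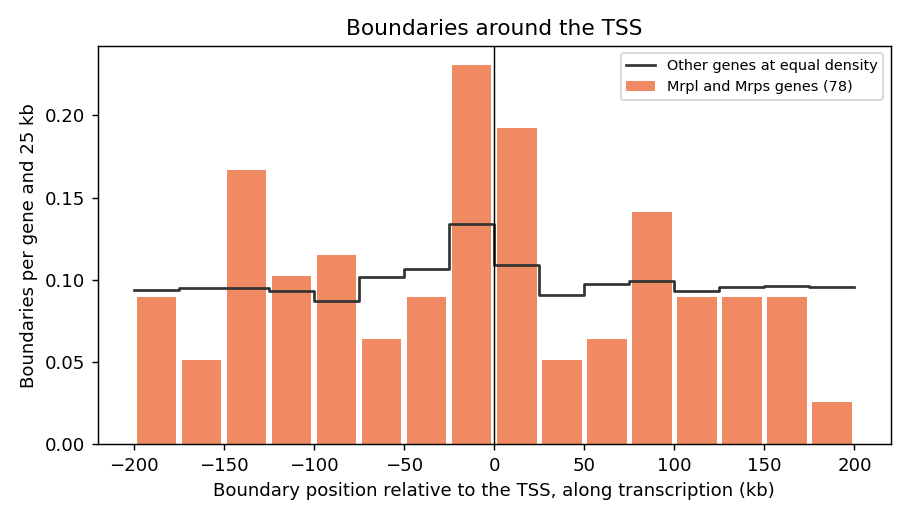
Boundaries per gene in bins of 25 kb from 200 kb upstream (negative) to 200 kb downstream of the TSS, along transcription. Bars are the 78 Mrpl and Mrps genes and the line is other protein-coding genes at equal density. The bars on both sides of the TSS, 0.231 and 0.192, stand above the line at 0.134 and 0.109. The bin from 125 to 150 kb upstream, with 13 boundaries or 0.167 per gene, also stands above the line, at 0.0948.

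The nearest boundary lay inside the gene in 8 of 78 members (10.3%), against 10.7% of all genes. These members were Mrpl22, Mrpl38, Mrps23, Mrpl20, Mrpl10, Mrps28, Mrps31 and Mrpl42. At Mrpl22 and Mrpl38 the TSS is in the boundary bin, so the side is not resolved. A boundary inside a gene that was not the nearest to its TSS was not counted. The members are short, with a median annotated length of 7.90 kb against 17.6 kb for all genes. The intervals between boundaries that hold them had a median length of 255 kb and 7 protein-coding genes, against 270 kb and 6 genes. In 22 of the 33 near cases the member was the protein-coding TSS closest to its boundary, and 23 of the 33 boundaries had another protein-coding TSS within 25 kb. Neither share was counted for other genes, so neither is a trait of the members. Which TSS a boundary belongs to cannot be told from the map.

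The near members were not spread evenly over chromosomes. Chromosome 11, with 11 members, had 8 of them within 25 kb, against 29.4% of all its protein-coding genes. Chromosome 17 had 5 of 8, against 25.4%, and chromosome 4 had 4 of 4, against 26.8%. None was near among the 5 members of chromosome 19, the 4 of chromosome 5, and the 3 each of chromosomes 14 and 16, where 22.4 to 25.95% of all genes were. Without chromosomes 11 and 17, which were picked after their values were seen, 20 of 59 members were near (33.9%), against 23.9% of other genes at equal density, and the median distance was 50.4 kb. The difference is then 10.0 percentage points in place of 18, so those chromosomes carry a large share of it.

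Head-to-head order, with another protein-coding TSS on the opposite strand and within 1 kb upstream or downstream, was found in 33 of 78 members (42.3%, interval 31.2 to 54.0), against 11.2% of all genes. It was found in 9 of 29 Mrps genes and 24 of 49 Mrpl genes. The gap between the TSSs was 128 b in the median, with a range of 26 to 935 b, and at most 200 b in 21 pairs. Of the 33 partners 2 are genes of respiratory complex I, 2 are members (Mrps11 and Mrpl46) and 1, Sars2, is in the lists of mitochondrial gene expression. No such share was counted for other genes. Mrpl36 starts 29 b from Ndufs6 and Mrpl47 615 b from Ndufb5, the complex I genes, and Mrpl43 lies 779 b from Twnk, the mitochondrial DNA helicase. Other partners are Psma2 of the proteasome (75 b from Mrpl32), Fau, which encodes a cytosolic ribosomal protein (59 b from Mrpl49), and the histone chaperone gene Hira (175 b from Mrpl40). The partners named one by one were chosen for their known roles after their values were seen.

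Members with a head-to-head neighbour were near a boundary in a share close to that of all such genes, unlike members without one. Of the 33 members with a head-to-head neighbour 12 were within 25 kb (36.4%, interval 20.4 to 54.9), against 32.6% of all genes with one. Of the 45 without one 21 were near (46.7%, interval 31.7 to 62.1), against 23.2% of all genes without one. The median distances were 47.6 kb for members with a neighbour and 33.2 kb for members without, against 44.5 kb and 60.2 kb for all genes of each kind. Both shares have wide intervals that overlap, and the difference was not tested.

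Promoters of these genes are known in mammals to bind NRF1, ETS factors such as GABP, YY1 and SP factors, which act on many nuclear genes for mitochondrial proteins. RefSeq promoter windows on GRCm38.p6, from 250 b before to 50 b after the start, were matched to 69 members by symbol. In 50 of them the RefSeq start was within 100 b of the GENCODE TSS. Exact matches on either strand were counted for NRF1 (GCGCATGC), ETS (CCGGAAG), YY1 (AAGATGGC) and SP (CCCGCCC). No motif contains another, although neighbouring matches may overlap. The windows of 5 genes within 10 kb of a boundary are printed because they hold the most kinds of match among those genes, on the gene's strand and with matches in capitals, from chr11:58171414-58171713 (+) for Mrpl22, chr13:99344536-99344835 (+) for Mrps27, chr17:46110754-46111053 (+) for Mrps18a, chr17:35916391-35916690 (-) for Mrps18b and chr7:28741772-28742071 (-) for Mrps12.
Mrpl22: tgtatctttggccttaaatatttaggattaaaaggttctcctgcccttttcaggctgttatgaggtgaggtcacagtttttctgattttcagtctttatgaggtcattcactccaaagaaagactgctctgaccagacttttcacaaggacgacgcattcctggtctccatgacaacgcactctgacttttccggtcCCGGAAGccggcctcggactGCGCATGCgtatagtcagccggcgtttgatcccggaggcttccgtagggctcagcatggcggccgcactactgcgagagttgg
Mrps27: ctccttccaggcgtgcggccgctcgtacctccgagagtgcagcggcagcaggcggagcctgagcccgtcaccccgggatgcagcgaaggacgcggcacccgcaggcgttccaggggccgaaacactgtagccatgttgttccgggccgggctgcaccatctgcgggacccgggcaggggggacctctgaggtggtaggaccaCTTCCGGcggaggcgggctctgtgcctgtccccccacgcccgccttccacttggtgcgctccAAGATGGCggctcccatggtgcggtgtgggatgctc
Mrps18a: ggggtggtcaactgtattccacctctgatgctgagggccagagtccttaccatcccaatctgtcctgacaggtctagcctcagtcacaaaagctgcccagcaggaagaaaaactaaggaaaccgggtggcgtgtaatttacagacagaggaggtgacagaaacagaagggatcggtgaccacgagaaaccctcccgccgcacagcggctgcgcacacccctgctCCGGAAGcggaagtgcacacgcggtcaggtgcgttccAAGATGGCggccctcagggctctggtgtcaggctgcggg
Mrps18b: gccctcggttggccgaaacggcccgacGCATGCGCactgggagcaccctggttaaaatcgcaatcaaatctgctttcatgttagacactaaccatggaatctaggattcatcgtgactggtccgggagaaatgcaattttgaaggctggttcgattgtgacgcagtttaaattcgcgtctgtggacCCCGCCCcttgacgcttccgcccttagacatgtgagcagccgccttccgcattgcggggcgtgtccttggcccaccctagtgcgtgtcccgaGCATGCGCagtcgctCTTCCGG
Mrps12: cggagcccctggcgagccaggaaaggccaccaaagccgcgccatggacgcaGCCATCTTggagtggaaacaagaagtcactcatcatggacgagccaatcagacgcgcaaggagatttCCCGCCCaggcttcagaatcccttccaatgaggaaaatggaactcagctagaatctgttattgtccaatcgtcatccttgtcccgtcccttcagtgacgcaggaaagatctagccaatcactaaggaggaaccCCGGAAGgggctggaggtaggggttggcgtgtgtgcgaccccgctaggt

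In these windows the NRF1 and ETS letters of Mrpl22 lie close to the start, and Mrps27 and Mrps18a both carry the YY1 letters near the end of the window. The ETS match was found in 24 of 69 members (34.8%), against 12.6% of 15703 genes with a window. The YY1 match was found in 12 (17.4%), against 3.25%, and the NRF1 match in 8 (11.6%), against 3.80%. The SP match differed less, with 29 members (42.0%, interval 30.2 to 54.5) against 35.8%. No match of any of the 4 was found in 19 members, and 4 members held both NRF1 and ETS. In windows of the same reach around the GENCODE TSS, the median GC content was 57.7% over all 78 members, against 55.3% over 20807 genes. These are not the RefSeq windows of the motif counts, and the part of GC content in those counts was not tested. A match is a run of letters and not a measured binding site.

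**Figure D4:**
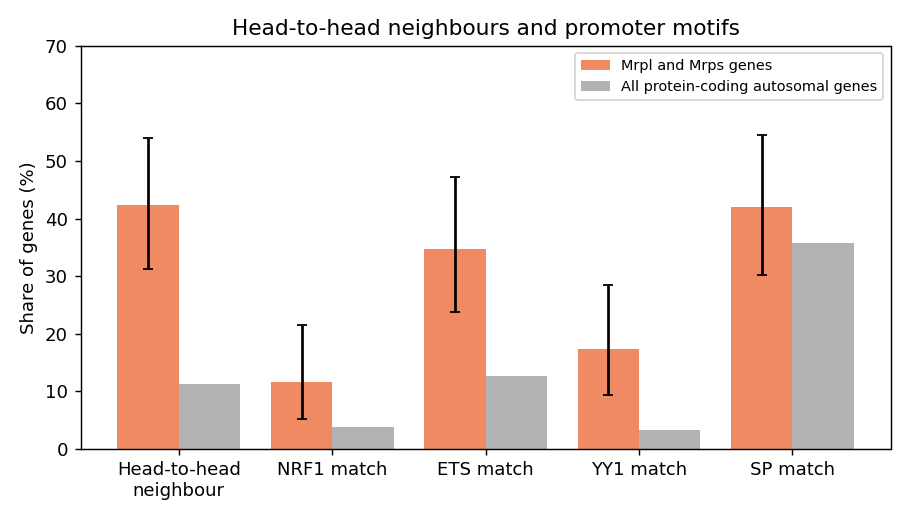
Share of genes (%) with a head-to-head neighbour within 1 kb and with each promoter motif, for the Mrpl and Mrps genes (78 for neighbours and 69 for motifs, with exact 95% intervals) and for all protein-coding autosomal genes (20807 for neighbours and 15703 for motifs). The members' bars stand at 42.3, 11.6, 34.8, 17.4 and 42.0%, against 11.2, 3.80, 12.6, 3.25 and 35.8%, and for SP alone the interval holds the value of all genes.

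The CTCF core consensus was searched within 10 kb of boundary midpoints. It was found at 63 of the 77 boundaries nearest to members (81.8%, interval 71.4 to 89.7), against 59% of all autosomal boundaries. Counted by gene, the nearest boundary had a match for 63 of 78 members (80.8%, interval 70.3 to 88.8), against 70.6% of all protein-coding genes and 71.4% at equal density, which is a smaller gap. At the 33 boundaries within 25 kb of a member it was found at 27 (81.8%), against 71.7% of the 3178 autosomal boundaries with any protein-coding TSS within 25 kb. Of the 84922 core matches on autosomes, 62307 (73.4%) lie in sequence that the reference marks as repeats. With matches outside repeats alone, the counts were 30 of 77 (39.0%), against 29.8% of all autosomal boundaries. Near boundaries then had 14 of 33 (42.4%, interval 25.5 to 60.8), against 34.1%. The difference from gene-near boundaries is within these intervals.

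For 16 of the 17 members within 10 kb a match was found, and this was not counted for all genes within 10 kb. The match nearest to the midpoint is given for 8 of the 16 members to show how alike the letters around it are. At Mrps10, Mrps2 and Mrps14 it lies 3.91, 4.32 and 6.31 kb from the midpoint, outside the boundary bin. Each line has 14 b on either side of the core, which is in capitals, on the strand of the match, from chr4:126044706-126044745 (+) at Mrps15, chr17:47363571-47363610 (-) at Mrps10, chr17:46641604-46641643 (-) at Mrpl2, chr17:46105762-46105801 (-) at Mrps18a, chr2:28458162-28458201 (-) at Mrps2, chr1:160193788-160193827 (+) at Mrps14, chr13:99342584-99342623 (+) at Mrps27 and chr17:35921379-35921418 (+) at Mrps18b.
Mrps15: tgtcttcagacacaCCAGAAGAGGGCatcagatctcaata
Mrps10: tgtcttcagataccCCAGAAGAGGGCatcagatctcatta
Mrpl2: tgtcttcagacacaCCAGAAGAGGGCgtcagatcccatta
Mrps18a: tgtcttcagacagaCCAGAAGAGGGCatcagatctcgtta
Mrps2: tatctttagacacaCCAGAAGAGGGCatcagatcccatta
Mrps14: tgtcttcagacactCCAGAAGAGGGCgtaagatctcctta
Mrps27: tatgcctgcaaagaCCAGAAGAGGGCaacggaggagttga
Mrps18b: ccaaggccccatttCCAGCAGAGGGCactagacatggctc

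The first 6 lines share most letters outside the core too, while those of Mrps27 and Mrps18b do not. Over all 16 matches, 11 were at least 80% identical to the most frequent base at each of the 40 positions. Those bases were taken from the same 16 matches and include the core, most of whose letters the search required. The identity is therefore partly built in and is not that of the flanks alone. Of the 16 matches 15 lay in sequence marked as repeats, the match at Mrps18b being the exception. The core CCAGAAGAGGGC was that of 14 of the 16, and it made up 56.9% of all core matches on autosomes. SINE B2 repeats, which are abundant in the mouse genome, are known to carry a CTCF motif, but the repeat family of these matches was not annotated here. The reference is of C57BL/6J and the cells of 129P2/OlaHsd, so a repeat present in one strain alone is not seen.

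Other gene groups of the same machinery were mixed. Among 6 further genes, those for proteins of the ribosome under other symbols and the ribosome-bound insertase Oxa1l, 4 were within 25 kb of a boundary, the nearest being Gadd45gip1 at 5.98 kb. Of 21 genes for assembly and rRNA modification 7 were near (33.3%), with the 2′-O-methyltransferase gene Mrm2 at 4.40 kb. Of 17 mitochondrial tRNA synthetase genes 4 were near (23.5%), with the methionyl-tRNA synthetase gene Mars2 at 0.324 kb. Of 14 genes for translation factors 1 was near (7.14%, interval 0.181 to 33.9), the cytochrome oxidase translational activator Taco1 at 1.44 kb. Of 7 genes for mitochondrial transcription 3 were near, with Mterf1b at 10.1 kb and Mterf1a at 21.4 kb, both on chromosome 5. The other was Tfam, which packages mitochondrial DNA, at 10.8 kb. Of 9 regulators of genes for mitochondrial proteins 1 was near, Esrra at 14.3 kb. The share was above the 24.3% of all genes in 3 of these 6 groups, and in each of them the interval held that value.

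Gene lists of other complexes, taken by symbol, had comparable shares. Within 25 kb lay 40 of 81 genes of the cytosolic ribosome (49.4%, interval 38.1 to 60.7), 18 of 38 of the proteasome (47.4%, interval 31.0 to 64.2) and 11 of 35 of respiratory complex I (31.4%, interval 16.9 to 49.3). The interval of each overlaps that of the 78 members, and no difference from them was tested. In head-to-head order complex I was nearest to the members, with 15 of 35 genes (42.9%), against 16 of 81 in the cytosolic ribosome and 9 of 38 in the proteasome.

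**Figure D5:**
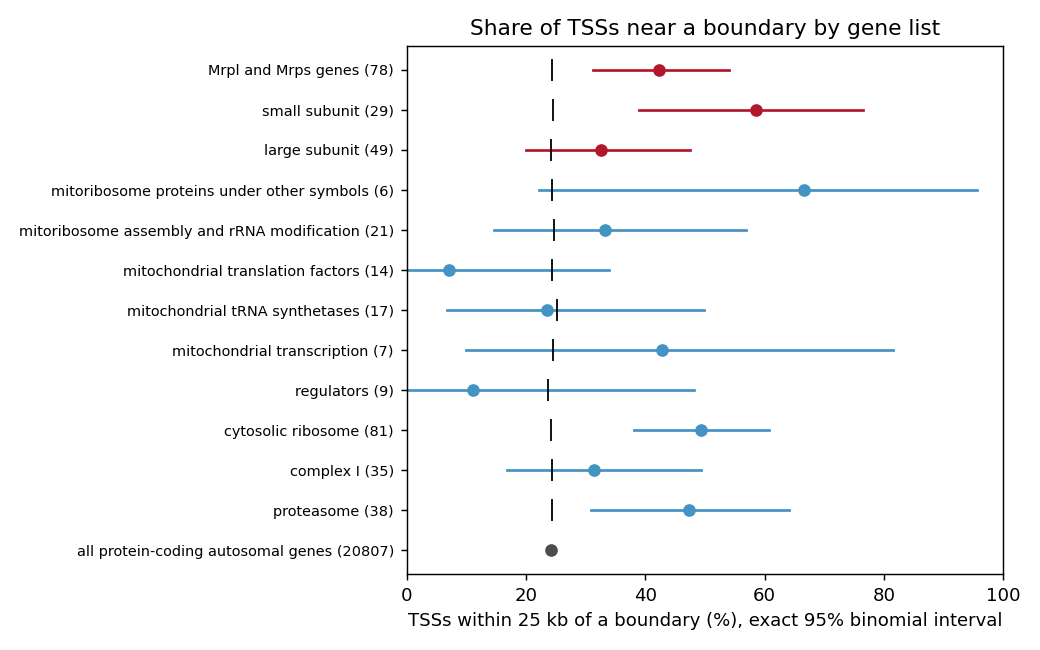
Share of TSSs within 25 kb of a boundary (%) for each gene group, with the number of genes in brackets. Points are shares, lines are exact 95% intervals and ticks are other genes at equal density. The members stand at 42.3%, between complex I at 31.4% and the cytosolic ribosome at 49.4%, and all protein-coding autosomal genes at 24.3%.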

How the data were processed

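Per the labels, the authors merged the contact lists from 2 biological replicates into a matrix on GRCm38 and derived the boundary list from it. No source used here names the caller, its window or the aligner, or gives the number of contacts. The deposited score has no stated unit and is compared only within the list. The class, another deposited column, is a threshold on that score. The contact matrix, the insulation track and 407 boundaries on the X chromosome were not used here.

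Genes came from GENCODE M21, sequence from GRCm38 and promoters from RefSeq, with python 3.11.15, pandas 2.3.3, numpy 2.4.6, scipy 1.17.1 and pysam 0.24.0. Coordinates are 1-based. Other genes were weighted by the members' counts in 10 classes of gene density within 500 kb. No test was run, since the 1 list has no replicate values and genes are not replicates. Distances were tested on simulated data, where 192 of 200 planted offsets among 20807 genes were returned with their side and the other 8 had a closer boundary. The rule for names takes members within 10 kb, the 3 farthest of each subunit, those with the 3 highest and 3 lowest scores or a shared boundary, and at most 3 nearest genes of each other list. The members and lists were chosen with earlier results of these data known. The alternatives were other distances, boundary sets, gene starts, density windows, motif windows and member rules, and each chromosome left out in turn. Those with the RefSeq start, without chromosomes 11 and 17, with CTCF matches outside repeats, and with the subunit by place of the protein were added after seeing the data.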

Additional observations from a re-analysis of the deposited data

How the results depend on the processing

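The share of members within 25 kb (42.3%) was 21.8% at 10 kb and 56.4% at 50 kb. With Strong boundaries alone it was 25.6%, against 16.3% of other genes at equal density, with a median distance of 79.0 kb and a median score of 0.946. With the higher-scoring 50% of boundaries it was 25.6%, against 15.2%, with a median distance of 88.3 kb and a median score of 0.975. At 10, 25 and 50 kb and under the other settings tried at 25 kb, the difference from other genes at equal density was positive, from 9.38 percentage points (Strong boundaries alone) to 23.5 (without head-to-head genes). Within 1 kb the share was 1.28%, against 1.65%. With each chromosome left out in turn, the share ran from 37.3 to 45.2%, the difference from 13.3 to 20.8 percentage points, the median distance from 30.2 to 42.0 kb, the median score from 0.759 to 0.802, the share with a Strong boundary from 69.9 to 73.2% and the share with the boundary upstream from 48.6 to 58.2%. The ETS match was found in 47.8% of members in windows from 500 b before to 100 b after the start, against 15.7% of all genes. The CTCF core was found at 63.6% of the members' boundaries within 5 kb, 93.5% within 25 kb and 39.0% outside repeats, against 40.9%, 80.2% and 29.8% of all autosomal boundaries. Of autosomal boundaries near a TSS, 51.7% had it within 5 kb and 90.6% within 25 kb. The search outside repeats was chosen after seeing the data. No paired analysis was possible because both replicates of the 1 group were combined before the boundaries were called. For the same reason no value has an error from replicates, and the depth behind a boundary is unknown. Distances under 5 kb are below the bin size. Under 2.5 kb the TSS lies in the boundary bin, and from 2.5 to 5 kb it lies in the bin next to it.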
